A study of Homo sapiens with 6 samples.

Results

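Aminoacyl-tRNA synthetases are the enzymes that join each amino acid to its tRNA, the step that fixes the genetic code before translation. Human cells encode most of them in pairs, with a cytosolic enzyme (symbols ending in 1, and the subunits FARSA and FARSB) and a mitochondrial enzyme made from a separate nuclear gene (symbols ending in 2). Several cytosolic enzymes are known targets of ATF4, a transcription factor whose translation increases in cells short of amino acids (the integrated stress response) and which acts through C/EBP-ATF response elements in DNA. The group described here held 39 genes chosen by symbol: 19 cytosolic enzymes or subunits, 16 mitochondrial enzymes, the tRNA exporter XPOT, and AIMP1, AIMP2 and EEF1E1, the scaffold proteins of the multi-synthetase complex. AIMP2 ends in 2 but is no mitochondrial enzyme and was not counted as one.

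Of these 39 genes, 33 were measured, out of 19676 genes on the arrays: 17 cytosolic enzymes or subunits, 14 mitochondrial enzymes, XPOT and AIMP1. Each was read from the probe set that names that gene alone and has the highest mean. MARS1, QARS1 and TARS2 were only on probe sets that also name a second gene, AIMP2 and EEF1E1 were on no probe set listed with a symbol, and MARS2 was only on a row whose 6 h values do not belong to it. All 33 measured members reached a log2 intensity of 6 on all 6 arrays, so none was lost to the filter on low values.

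The arrays came from A375, an established cell line from a human melanoma that carries mutated BRAF. Cells received DMSO (the solvent), 10 µM vemurafenib (an inhibitor of mutant BRAF), 100 nM AT9283 (an inhibitor of several kinases, the Aurora kinases and JAK2 among them) or both drugs for 6 h, and DMSO or 10 µM vemurafenib for 16 h. Each condition had 1 array, so a difference has no replicate check, the number of arrays limits the precision, and a size rule stands in for a test. "Rose" and "fell" are used for a difference of at least 1.5-fold (a log2 difference of 0.585) in which at least the higher of both arrays reached log2 6, and counts at 2-fold (log2 1) are given beside it. The median intensity per array was 19.79 to 21.29. Of 10 measured melanocyte lineage markers 4 reached log2 6 on all arrays: SOX10 (8.32 to 9.14), MITF (8.63 to 9.66), ERBB3 and CSPG4. The pigment genes MLANA, PMEL, TYR and TYRP1 and the marker S100A1 stayed below log2 6 on all arrays, and S100B reached it on 1. Of 11 markers of other cell types COL1A1 alone reached it. The arrays read bulk RNA, so a change in the level per cell and a change in the share of cells that express a gene cannot be told apart. ATF4 itself lay at log2 11.22 with DMSO, 12.21 with vemurafenib, 11.21 with AT9283 and 11.83 with both drugs at 6 h, and at 11.21 with DMSO and 11.82 with vemurafenib at 16 h. Its level was higher on all 3 arrays with vemurafenib than on the 3 without it.

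The promoters of the members show where the core letters of a C/EBP-ATF response element occur. RefSeq promoter windows (build GRCh38.p14, 250 bases before to 50 after each listed start) matched 34 of the 39 members. The 8 letters TGATGNAA, searched on both strands, stood in the windows of 7 of 16 cytosolic enzymes (43.8%) and of 1 of 14 mitochondrial ones (7.14%), against 1217 of all 27305 genes in the table (4.46%). Counted per listed start, 8 of 46 member windows (17.4%) and 1270 of 35116 windows in all (3.62%) held them. A match describes the letters in this window and is no evidence that a factor binds there.

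The 5 windows below belong to the 5 cytosolic enzymes that rose after 6 h of vemurafenib, and are shown to set those with the letters (AARS1, GARS1, CARS1) beside those without (SARS1, WARS1). They run 5′ to 3′ on the gene's own strand from 250 bases before the start to base 30 of the transcript, with the match in capitals. AARS1 lies at chr16:70289477-70289756 on the minus strand, GARS1 at chr7:30594628-30594907 on the plus strand, CARS1 at chr11:3057394-3057673 on the minus strand, SARS1 at chr1:109213643-109213922 on the plus strand and WARS1 at chr14:100376298-100376577 on the minus strand. For GARS1 and CARS1, which have 2 listed starts, the window with the match is shown. SARS1 and WARS1 also have 2 listed starts, with the letters in neither, and 1 window of each is shown.
AARS1: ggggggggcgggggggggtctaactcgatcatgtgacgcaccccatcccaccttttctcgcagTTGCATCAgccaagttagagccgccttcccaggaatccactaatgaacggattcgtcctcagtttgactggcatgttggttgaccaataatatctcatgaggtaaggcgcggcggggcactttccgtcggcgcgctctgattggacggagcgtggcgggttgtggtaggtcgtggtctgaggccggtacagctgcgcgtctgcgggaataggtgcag
GARS1: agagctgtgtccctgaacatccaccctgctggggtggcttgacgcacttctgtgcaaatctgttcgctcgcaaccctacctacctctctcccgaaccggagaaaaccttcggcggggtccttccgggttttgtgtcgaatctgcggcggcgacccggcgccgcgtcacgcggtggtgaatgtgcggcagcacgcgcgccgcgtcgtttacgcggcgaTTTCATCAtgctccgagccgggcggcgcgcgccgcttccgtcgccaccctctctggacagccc
CARS1: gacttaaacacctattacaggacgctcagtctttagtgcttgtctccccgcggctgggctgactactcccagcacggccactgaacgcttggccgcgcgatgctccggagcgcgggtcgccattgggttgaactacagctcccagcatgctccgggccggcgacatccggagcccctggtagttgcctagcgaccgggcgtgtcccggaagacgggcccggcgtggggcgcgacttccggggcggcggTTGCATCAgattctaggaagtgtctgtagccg
SARS1: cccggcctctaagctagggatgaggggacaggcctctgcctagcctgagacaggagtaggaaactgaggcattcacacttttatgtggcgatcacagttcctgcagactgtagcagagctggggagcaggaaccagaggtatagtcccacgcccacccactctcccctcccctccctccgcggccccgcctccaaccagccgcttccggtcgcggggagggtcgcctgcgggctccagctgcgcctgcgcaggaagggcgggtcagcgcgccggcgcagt
WARS1: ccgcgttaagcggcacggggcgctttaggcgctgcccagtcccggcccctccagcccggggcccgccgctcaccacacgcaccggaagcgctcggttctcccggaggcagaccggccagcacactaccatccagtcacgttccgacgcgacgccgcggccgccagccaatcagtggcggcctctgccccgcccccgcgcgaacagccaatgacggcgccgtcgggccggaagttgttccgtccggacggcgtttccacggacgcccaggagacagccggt

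The other 5 matches are shown as stretches of 60 bases, to compare the letters and their distance from the start. TARS1 lies at chr5:33440935-33440994 on the plus strand, IARS1 at chr9:92293677-92293736 on the minus strand, MARS1 at chr12:57488038-57488097 on the plus strand, NARS1 at chr18:57621807-57621866 on the minus strand and YARS2 at chr12:32756061-32756120 on the minus strand.
TARS1: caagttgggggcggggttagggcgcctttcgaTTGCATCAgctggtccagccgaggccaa
IARS1: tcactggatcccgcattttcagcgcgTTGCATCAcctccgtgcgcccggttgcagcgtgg
MARS1: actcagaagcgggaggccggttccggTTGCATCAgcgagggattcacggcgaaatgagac
NARS1: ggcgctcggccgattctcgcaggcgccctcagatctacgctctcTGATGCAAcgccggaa
YARS2: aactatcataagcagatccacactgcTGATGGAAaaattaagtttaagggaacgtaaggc

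AARS1, CARS1, IARS1, MARS1 and TARS1 shared the letters TTGCATCA, and NARS1 held the same letters on its other strand (TGATGCAA). This exact octamer, singled out after the sequences were seen, stood in 6 of 16 cytosolic windows, 0 of 14 mitochondrial ones and 295 of 27305 genes in all (1.08%). The matches of GARS1, IARS1, CARS1, MARS1, TARS1 and NARS1 lay between positions -33 and 22 counted from the start, and those of AARS1 and YARS2 began at -187 and -197. The 1 mitochondrial match, in YARS2, read TGATGGAA.

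**Figure D1:**
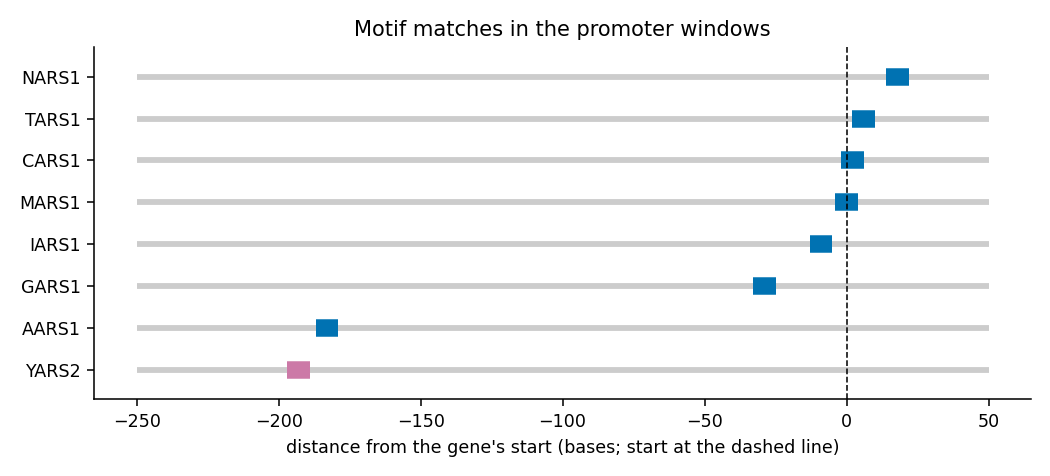
Position of the 8-letter match (blocks; blue for cytosolic enzymes, pink for the mitochondrial enzyme YARS2) in the promoter windows of the 8 members that hold it, in bases from the gene's start (dashed line); grey bars are the windows searched. 6 of the 8 matches lie close to the start, and those of AARS1 and YARS2 lie further upstream.

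Between the DMSO arrays at 16 h and 6 h, 0 of the 33 members rose or fell, where 1.54% of 9055 genes rose and 1.13% fell. The 31 enzymes differed by -0.22 to 0.20 on the log2 scale, and AIMP1 had the lowest value of the 33, at -0.38. This pair also holds the difference in time, and its spread over all genes was an SD of 0.244.

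After 6 h of vemurafenib, 5 of the 17 cytosolic enzymes rose (29.4%) and 0 fell, whereas 3.32% of 9095 genes rose and 5.05% fell. The 5 were AARS1 (alanine, 0.76), WARS1 (tryptophan, 0.72), SARS1 (serine, 0.72), GARS1 (glycine, 0.68) and CARS1 (cysteine, 0.62). None of the members was 2-fold higher or lower, where 94 of 9095 genes (1.03%) were at least 2-fold higher and 195 at least 2-fold lower. The 17 cytosolic enzymes had a median difference of 0.33, with 13 above 0, against a median of 0.02 for all genes. Of all genes, 53.8% lay above 0. Of the 14 mitochondrial enzymes 0 rose and 0 fell, and their median was 0.12, with 12 above 0.

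At 16 h the cytosolic enzymes had spread apart, as had all genes. The lower and upper quartiles of all genes were -0.15 and 0.17 at 6 h and -0.35 and 0.31 at 16 h. Those of the cytosolic enzymes were 0.08 and 0.62, then -0.21 and 0.61. 6 of the 17 rose (35.3%) and 2 fell (11.8%), where 13.1% of 9469 genes rose and 14.9% fell, so the share that fell was not above the background. WARS1, SARS1 and AARS1 were over 2-fold higher, as were 5.19% of genes, and FARSA was over 2-fold lower, as were 5.79%. The cytosolic differences ran from -1.19 to 1.51 with a median of 0.44, and the mitochondrial ones from -0.37 to 0.26 with a median of -0.06. Again 0 of 14 mitochondrial enzymes rose or fell. Both medians stayed on their side of 0 under every scaling tried, but the cytosolic one was 0.11 on probe sets not marked as shared between transcripts and 0.25 as a mean. The 0.11 covers fewer enzymes. EPRS1, GARS1, IARS1, LARS1 and VARS1 have no unmarked probe set, and those of YARS1 and FARSB lie below log2 6. Across the 17 cytosolic enzymes the differences at 6 h and 16 h, which share no array, correlated with r = 0.93 (Pearson) and rho = 0.96 (Spearman), and across the 14 mitochondrial ones 0.31 and 0.28. Over 8913 genes r was 0.74. These are descriptions across genes of the same arrays, and genes are not independent replicates.

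**Figure D2:**
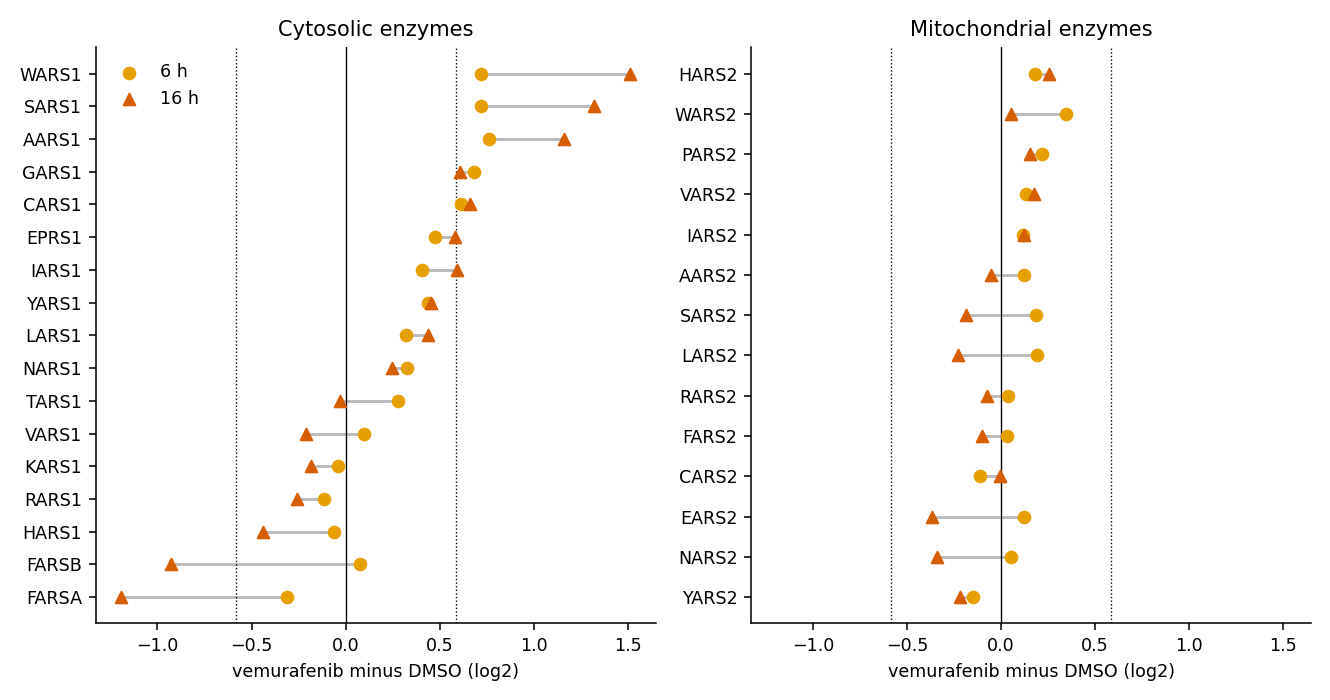
Vemurafenib minus DMSO (log2 scale) at 6 h (circles) and 16 h (triangles) for the 17 cytosolic (left) and 14 mitochondrial (right) enzymes, 1 array per condition; dotted lines mark 1.5-fold. WARS1, SARS1 and AARS1 reach 1.51, 1.32 and 1.16 at 16 h and FARSA -1.19, while all mitochondrial values lie between the dotted lines.

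WARS1 joins tryptophan to its tRNA and is also known as an interferon-induced gene. It lay at log2 9.03 with DMSO, 9.75 with vemurafenib, 8.99 with AT9283 and 9.28 with both drugs at 6 h, and at 8.997 with DMSO and 10.51 with vemurafenib at 16 h. The highest values were those of the vemurafenib arrays, and the combination lay between these and the 3 arrays without vemurafenib. The difference from DMSO was 1.65-fold at 6 h and 2.85-fold at 16 h. Its second probe set gave 0.66 and 1.34 on the log2 scale.

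SARS1, the seryl-tRNA synthetase, lay at log2 9.83 with DMSO, 10.55 with vemurafenib, 9.84 with AT9283 and 10.12 with both drugs at 6 h, then at 9.78 with DMSO and 11.10 with vemurafenib at 16 h. Again the combination lay between the vemurafenib arrays and the others, and the difference from DMSO was 1.65-fold at 6 h and 2.499-fold at 16 h. The 2 SARS1 probe sets disagreed in size and in order over time. The second, at log2 6 or more on all arrays, differed by 1.55 at 6 h and 0.76 at 16 h, and by -1.30 between the combination and vemurafenib.

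AARS1, the alanyl-tRNA synthetase, lay at log2 9.85 with DMSO, 10.62 with vemurafenib, 9.77 with AT9283 and 10.23 with both drugs at 6 h. At 16 h it lay at 9.84 with DMSO and 11.00 with vemurafenib. The 3 arrays with vemurafenib were the highest, and vemurafenib alone was 1.70-fold above DMSO at 6 h and 2.24-fold at 16 h.

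GARS1, whose gene gives both the cytosolic and the mitochondrial glycyl-tRNA synthetase, lay at log2 11.07 with DMSO, 11.75 with vemurafenib, 11.00 with AT9283 and 11.31 with both drugs at 6 h, and at 10.92 with DMSO and 11.53 with vemurafenib at 16 h. Unlike the 3 enzymes above it was not further from DMSO at 16 h (0.61) than at 6 h (0.68), and with arrays centred on their medians it was at 0.584 at 16 h, just under 1.5-fold. CARS1, the cysteinyl-tRNA synthetase, had 0.62 at 6 h and 0.66 at 16 h, and its 2 other probe sets at log2 6 or more had 0.59 and 0.57 at 6 h and 0.51 and 0.66 at 16 h. The call of CARS1 thus depends on the probe set at both times. IARS1, for isoleucine, rose at 16 h alone, with 0.59 after 0.41, and with arrays centred it too was under 1.5-fold, which left 4 enzymes that rose at 16 h. EPRS1, which carries the activities for both glutamate and proline, lay just under the rule at 16 h, with 0.582 against 0.585, while its 2 other probe sets passed with 0.822 and 0.586.

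The phenylalanyl-tRNA synthetase of the cytosol is built from 2 kinds of subunit, encoded by FARSA and FARSB, and both fell at 16 h. FARSA lay at log2 10.28 with DMSO, 9.96 with vemurafenib, 10.31 with AT9283 and 10.23 with both drugs at 6 h, and at 10.12 with DMSO and 8.93 with vemurafenib at 16 h. FARSB lay at 9.81, 9.89, 9.75 and 9.80 in the same order at 6 h and at 9.67 and 8.75 at 16 h. For both subunits the 16 h vemurafenib array was the lowest of the 6. The same held for HARS1, RARS1, KARS1, VARS1, TARS1 and AIMP1 and for mitochondrial enzymes such as NARS2 and EARS2. The 16 h differences of FARSA and FARSB were -1.19 and -0.93, with -0.31 and 0.08 at 6 h. The second FARSA probe set gave -1.02 at 16 h, while the 2 other FARSB probe sets lay below log2 6 on all arrays, so the fall of FARSB rests on 1 probe set.

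**Figure D3:**
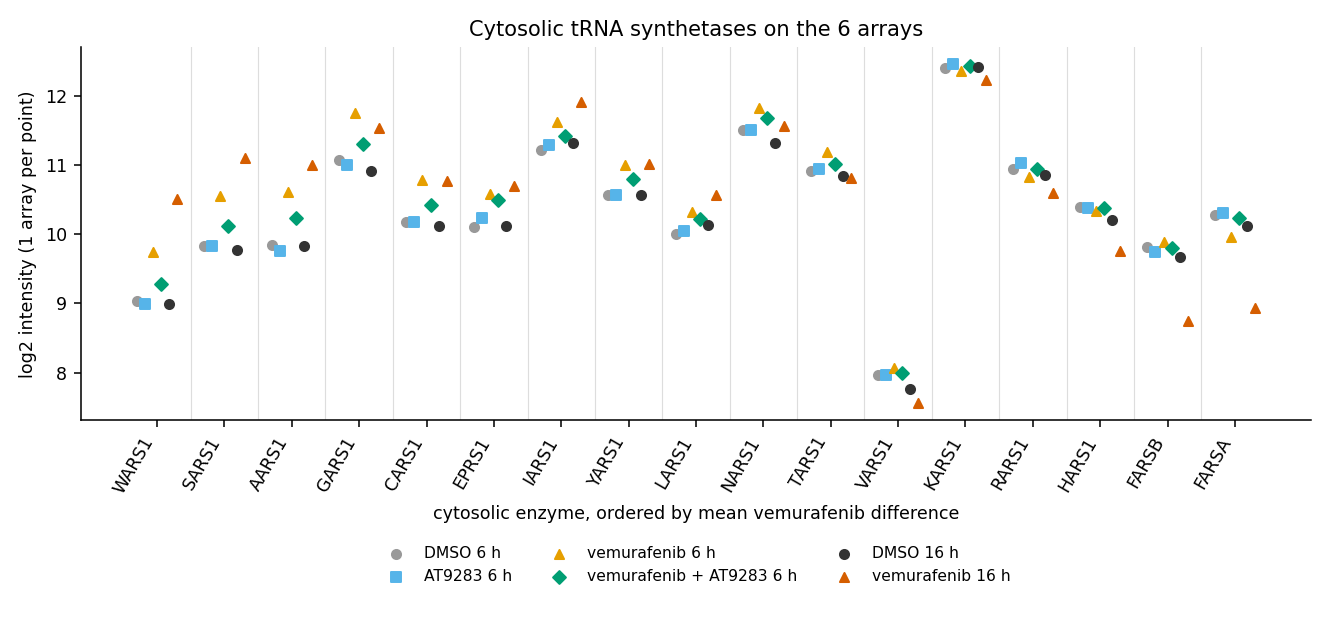
log2 intensity of the 17 cytosolic enzymes on each of the 6 arrays (1 point per array), ordered from left to right by the mean of their 2 vemurafenib differences; heights are not compared between genes. From WARS1 to YARS1 both vemurafenib arrays (triangles) lie above the DMSO arrays (circles). From TARS1 to FARSA the 16 h vemurafenib array lies below all others, furthest for FARSB and FARSA.

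The remaining cytosolic enzymes stayed under 1.5-fold at both times. YARS1 for tyrosine had 0.44 at 6 h and 0.45 at 16 h, LARS1 for leucine 0.32 and 0.44, and NARS1 for asparagine 0.33 and 0.25. TARS1 for threonine had 0.28 and -0.03, VARS1 for valine 0.10 and -0.21, KARS1 for lysine -0.04 and -0.19, RARS1 for arginine -0.12 and -0.26, and HARS1 for histidine -0.06 and -0.44. TARS1 and NARS1 are thus members with the promoter letters that did not rise, and SARS1 and WARS1 members without them that did. The letters stood in 4 of the 6 cytosolic enzymes with a window that rose at either time. They stood in 6 of all 14 measured cytosolic enzymes with a window. YARS1, LARS1 and VARS1 had no window, and a link between letters and rise was not tested.

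The enzymes were also split by groupings that the choice of members did not use, picked after the values were seen. The multi-synthetase complex is an assembly of cytosolic enzymes held by the AIMP proteins. Its 5 measured enzymes (EPRS1, IARS1, LARS1, KARS1, RARS1) had medians of 0.32 at 6 h and 0.44 at 16 h, and the 12 outside it 0.38 and 0.35, with no test of the difference. The 12 outside it covered a wider range at 16 h, from -1.19 to 1.51 against -0.26 to 0.59. By fold of the catalytic domain, EPRS1 (which has a domain of each class) left aside, the 7 class I enzymes had medians of 0.41 and 0.45 and the 9 class II enzymes of 0.28 and -0.03. Both classes held risers, 3 of 7 and 3 of 9 at 16 h, against 13.1% of all genes, and the 2 that fell (14.9% of all genes) were class II subunits of 1 enzyme. These counts are too small to set the classes apart.

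Cytosolic and mitochondrial enzymes for the same amino acid could be set side by side in 15 pairs, with EPRS1 paired for both its amino acids and both phenylalanyl subunits paired with FARS2. At 6 h the cytosolic difference was the larger in 11 of 15 pairs, with a median gap of 0.28, and at 16 h in 10 of 15, with a median gap of 0.59. The widest gaps at 16 h were for serine (1.32 for SARS1, -0.18 for SARS2), tryptophan (1.51 for WARS1, 0.05 for WARS2) and alanine (1.16 for AARS1, -0.05 for AARS2). For phenylalanine the order was turned, with -1.19 and -0.93 for the cytosolic subunits and -0.10 for FARS2. In histidine, valine and arginine the cytosolic value was also the lower one.

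**Figure D4:**
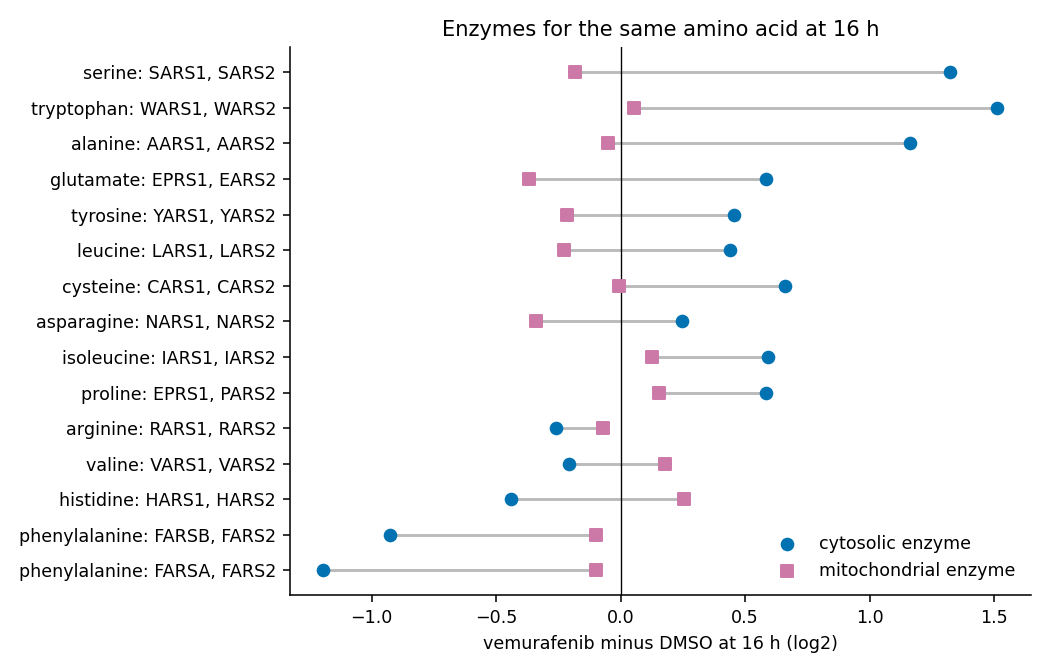
Vemurafenib minus DMSO at 16 h (log2 scale) for 15 pairs of a cytosolic (circles) and a mitochondrial enzyme (squares) for the same amino acid, ordered by the gap within the pair. The circle lies to the right in 10 pairs, with serine at the top, and to the left in 5, with phenylalanine at the bottom.

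Among the mitochondrial enzymes HARS2 had the highest mean vemurafenib difference, and it lay at log2 9.11, 9.29, 8.96 and 9.28 with DMSO, vemurafenib, AT9283 and both drugs at 6 h and at 9.03 and 9.29 with DMSO and vemurafenib at 16 h. WARS2 followed with 7.23, 7.57, 7.33 and 7.55 at 6 h and 7.43 and 7.48 at 16 h, and PARS2, for proline, with 6.42, 6.64, 6.35 and 6.46 at 6 h and 6.20 and 6.35 at 16 h. At the low end YARS2 lay at 8.69, 8.54, 8.76 and 8.79 at 6 h and 8.68 and 8.47 at 16 h, and NARS2 at 8.66, 8.71, 8.70 and 8.70 at 6 h and 8.65 and 8.31 at 16 h. The gap between vemurafenib and DMSO was at most 0.35 in these 5 genes. EARS2, for glutamate, had the lowest mitochondrial value at 16 h (-0.37), and its 2 other probe sets at log2 6 or more gave -0.49 and -0.29. The other 8 lay between -0.11 and 0.19 at 6 h and between -0.23 and 0.18 at 16 h.

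The mitochondrial enzymes include more genes of low intensity, and the medians were also taken over members with a mean log2 of at least 8. There 16 cytosolic enzymes had medians of 0.37 at 6 h and 0.45 at 16 h, and 7 mitochondrial ones of 0.05 and -0.07. MARS2, left out above, is the exception to the mitochondrial counts. With the 6 h values put back on their rows, an alternative added after seeing the data, it differed by -0.83 at 6 h (log2 7.13 with DMSO, 6.30 with vemurafenib) and by -1.16 at 16 h (6.94 and 5.78), and would have fallen at both times.

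XPOT, which carries tRNA out of the nucleus, lay at log2 10.87 with DMSO, 11.30 with vemurafenib, 11.00 with AT9283 and 11.16 with both drugs at 6 h, and at 11.00 with DMSO and 11.25 with vemurafenib at 16 h. Its differences of 0.43 and 0.25 were under 1.5-fold, and its second probe set had 0.34 and 0.30. AIMP1, a scaffold of the multi-synthetase complex, lay at 10.30, 10.37, 10.33 and 10.39 with DMSO, vemurafenib, AT9283 and both drugs at 6 h, and at 9.92 with DMSO and 9.58 with vemurafenib at 16 h. The 16 h difference was -0.34 on this probe set and -0.70 and -0.93 on its 2 others, so its call at 16 h depends on the probe set.

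After 6 h of AT9283 alone 0 of 33 members rose or fell, where 0.101% of 8938 genes rose and 0.0671% fell. The 33 differences ran from -0.15 to 0.13. The cytosolic and mitochondrial medians were 0.01 and 0.04, and AARS1, WARS1, SARS1 and GARS1 had -0.09, -0.04, 0.01 and -0.07.

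With both drugs at 6 h 0 of the 33 members rose or fell relative to DMSO, where 2.58% of 9076 genes rose and 4.24% fell. The 5 cytosolic enzymes that had risen with vemurafenib alone had differences of 0.38 for AARS1, 0.29 for SARS1, 0.25 for WARS1, 0.25 for CARS1 and 0.23 for GARS1, against 0.62 to 0.76 with vemurafenib alone. Both sets of values were taken against the same DMSO array, and the 5 were picked for being high on the array with vemurafenib alone, so lower values on another array are no finding by themselves. The cytosolic median was 0.20 and the mitochondrial one 0.09, and all genes had a median of 0.05.

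The combination was also set directly against vemurafenib alone at 6 h. 13 of the 17 cytosolic enzymes were lower in the combination, with a median of -0.15, whereas 57.8% of 8999 genes were higher. No member passed 1.5-fold in either direction, as did 0.244% of genes upward and 0.956% downward. The lowest differences were those of WARS1 (-0.47), GARS1 (-0.45), SARS1 (-0.43), AARS1 (-0.38) and CARS1 (-0.37). These enzymes had been called as rising on this same vemurafenib array, which is subtracted here. Their low values are thus no finding by themselves. The SD over all genes of the difference between the DMSO arrays was 0.244, as given above. The highest cytosolic value was that of FARSA, at 0.27. The 14 mitochondrial enzymes ranged from -0.18 for PARS2 to 0.25 for EARS2, with a median of -0.01. For comparison ASNS, the asparagine synthetase gene that ATF4 controls, differed by -1.23 and DDIT3, a stress-induced transcription factor gene, by -1.12. ATF4 itself differed by -0.38. On the subtracted vemurafenib array these 3 genes were above DMSO, by 1.94, 2.08 and 0.99, so the same limit holds for them.

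The comparison at 16 h has no array in common with that of the combination and vemurafenib. Across the 17 cytosolic enzymes these comparisons correlated with r = -0.86 (Pearson) and rho = -0.87 (Spearman), across the 14 mitochondrial ones -0.62 and -0.57, and across 8837 genes -0.30 and -0.33. The 5 enzymes with the lowest difference between the combination and vemurafenib were thus those with the highest vemurafenib differences at 16 h. These are descriptions across genes, which share the arrays and their normalization.

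**Figure D5:**
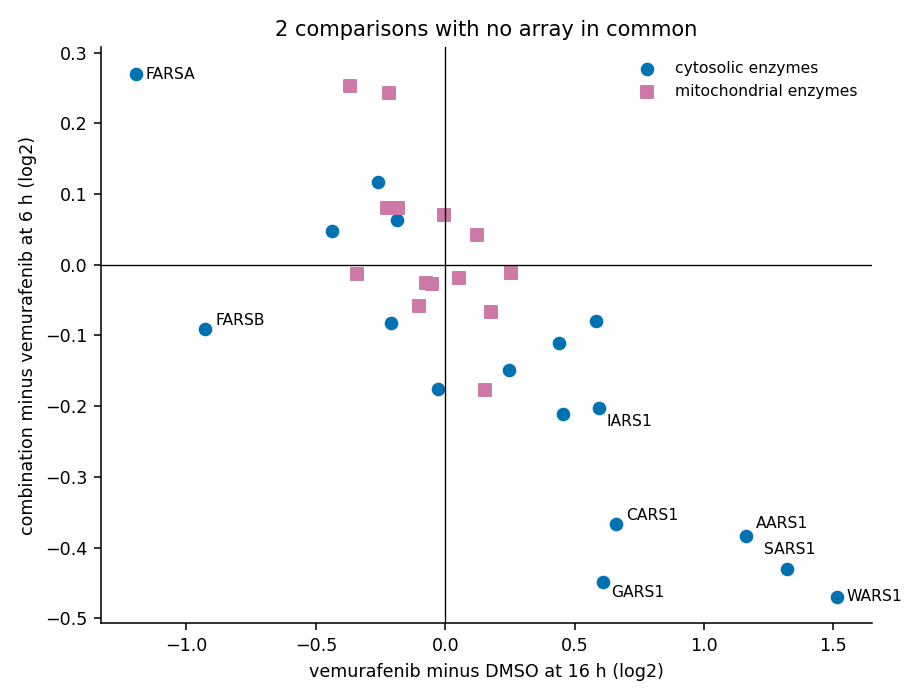
Combination minus vemurafenib at 6 h (vertical, log2 scale) against vemurafenib minus DMSO at 16 h (horizontal, log2 scale) for 17 cytosolic (circles) and 14 mitochondrial (squares) enzymes, 1 array per condition. WARS1, SARS1, AARS1, GARS1 and CARS1 lie at the lower right, between -0.47 and -0.37 on the vertical axis, and FARSA lies at the upper left.

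A limma fit with time as a block, over the 4 arrays of DMSO or vemurafenib alone, gave the drug effect over both times. It called 1.17% of 9651 genes at an adjusted p under 0.05 and 0 of the 33 members, while 12 of the 33 members and 2141 of the 9651 genes had an unadjusted p under 0.05. GARS1 had a difference of 0.65 (SE 0.11, adjusted p 0.0904), AARS1 of 0.96 (SE 0.16, adjusted p 0.0971), SARS1 of 1.02 (SE 0.19, adjusted p 0.115) and WARS1 of 1.12 (SE 0.24, adjusted p 0.129). All 4 were higher at both times. FARSA had -0.75 (SE 0.25, adjusted p 0.204). Over 4 other settings of the fit the adjusted p was 0.0565 to 0.158 for GARS1 and 0.063 to 0.132 for AARS1. Among the mitochondrial enzymes HARS2 had 0.22 (95% interval -0.18 to 0.61) and SARS2 0.00 (-0.40 to 0.40). The fit has 1 residual degree of freedom, which holds the change of the difference between 6 h and 16 h and is not replicate error, so an enzyme whose difference grew with time, such as WARS1, has a larger error for that reason. DDIT3 and ASNS passed in the same fit, with 1.89 (adjusted p 0.0294) and 2.28 (adjusted p 0.031), but neither passed without the trended prior (adjusted p 0.055 and 0.059), and ASNS did not pass in the fit of all 6 arrays (adjusted p 0.0734).

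The interaction of the drugs, fitted with limma over all 6 arrays, called 0% of 9707 genes, with 39 at an unadjusted p under 0.05 and 0 members among them. The fit takes 1 vemurafenib effect for 6 h and 16 h, so its values set the effect with AT9283 at 6 h against the mean of both times. SARS1 had -0.74 (95% interval -1.63 to 0.16) and WARS1 -0.82 (-1.91 to 0.26), both with an adjusted p of 0.999. From the 4 arrays at 6 h alone, which allow no test, the same difference was -0.44 for SARS1 and -0.43 for WARS1. The fitted intervals include 0 and also falls of over 2-fold, so these arrays do not settle the size of the interaction.

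Other genes of tRNA handling and translation were counted from lists drawn up by function, to be read against the 3.32% of all genes that rose and 5.05% that fell at 6 h, and the 13.1% and 14.9% at 16 h. Of 8 measured cytosolic elongation and termination factors 0 rose and 1 fell at 6 h, and 1 rose and 2 fell at 16 h, with medians of -0.02 and -0.04. Of 12 mitochondrial translation factors 0 rose at either time and 1 fell at 16 h, with medians of 0.00 and -0.19. Of 16 genes of tRNA end processing, splicing and quality control 1 fell at 6 h and 3 at 16 h, and none rose. Their medians were 0.00 and -0.36. At 16 h 14 of the 16 lay below 0, against 4737 of 9469 genes. None of these lists had a median above 0.01, whereas the cytosolic enzymes had 0.33 and 0.44. Of 18 ATF4 program genes, a list picked with earlier results of these arrays known, 15 rose at 6 h and 15 at 16 h, with medians of 1.92 and 1.07.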

How the data were processed

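The deposited values are linear probe set intensities. Per the submitters' processing notes the authors used RMA. The RMA version, any later step and whether the arrays were normalized jointly remain not given in the sources used here. Intensities were converted to log2 and named through the platform annotation (41097 of 54675 probe sets with 1 symbol, 1801 with several, 11777 unlisted). In 1118 probe sets the 6 h values sat on other rows of their block (r between the DMSO arrays 0.455, against 0.984 after re-sorting and 0.992 elsewhere). These and 62 control probe sets were left out. Against other probe sets of the same genes (443 probe sets) the 16 h arrays had r of 0.152 and 0.143 and the 6 h arrays of -0.0205 to 0.0191, so the 16 h order was kept. Per gene the probe set with the highest mean was used.

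Differences were taken between single arrays. The fits used limma 3.58.1 (R 4.3.3) with a trended prior on genes with 1 array at log2 6 or more and Benjamini-Hochberg adjustment. They were also run on simulated arrays with independent noise and the same vemurafenib shift at both times. Those arrays cannot check the fits for differences that change with time. Values on all arrays were given, by rule, for members over 2-fold, for enzymes with the highest and lowest mean vemurafenib difference, and for XPOT and AIMP1. Members, lists and tests were chosen with earlier results of these data known. No sample was left out.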

Additional observations from a re-analysis of the deposited data

How the results depend on the processing

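Each condition had 1 array, so no block by replicate could be fitted, and time was the one block used. With arrays centred on their medians and with quantile normalization the cytosolic median for vemurafenib at 16 h was 0.41 and 0.48 and the mitochondrial one -0.09 and -0.02. The enzymes that rose at 16 h were then 4 and 7 in place of 6, and those that rose at 6 h stayed at 5. Taking the mean over enzymes in place of the median put the cytosolic value for vemurafenib at 16 h at 0.25 and its lead over the mitochondrial value at 0.31. Without the probe sets whose names carry _s_at or _x_at (several transcripts) these were 0.11 and 0.17, 4 enzymes rose at each time, and 1 fell at 16 h in place of 2. This setting left out EPRS1, GARS1, IARS1, LARS1 and VARS1, and it left YARS1 and FARSB below the floor. With the mean over all probe sets 1 enzyme fell at 16 h, and 1 (SARS1, -0.87) was lower in the combination than with vemurafenib. Keeping the misaligned rows as deposited put 1 enzyme over the rule upward in the DMSO pair, and re-sorting them put 1 (MARS2) below DMSO with vemurafenib at 6 h and 1 below AT9283 in the combination. Either choice also let MARS2 fall at 16 h (-1.16), since its 16 h values are the same in both. The limma fit over both times called 43 genes without a trended prior and 463 from all 6 arrays, in place of 113, but 0 members under each alternative, with a lowest adjusted p among members of 0.0565 to 0.132 (limma). The promoter letters with 1 base more (TGATGNAAT) stood in 2 cytosolic windows and 0 mitochondrial ones. Intensities near background limit the enzymes of lowest level, PARS2 and AARS2.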
